A study of Mus musculus with 24 samples.

Results

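Microglia that carried transcripts of tumour necrosis factor (Tnf) together with those of the chemokines Ccl3 or Ccl4 were the most numerous of the 4 classes that these genes define, making up 8010 of the 14579 microglia and of the 103715 cells kept in all. A cell was counted as microglial when it held at least 4 unique molecular identifiers (UMIs, each standing for 1 captured transcript) of P2ry12, Tmem119, Cx3cr1 and Siglech together and at most 1 of Mrc1 and Pf4, which mark perivascular macrophages. The cells called double-positive here were chosen by these same measured counts: they held at least 1 Tnf UMI and at least 5 of Ccl3 and Ccl4 together. They were set against 1551 comparison microglia of the same libraries with 0 Tnf UMIs and at most 4 chemokine UMIs. The remaining microglia met 1 criterion only: 4193 had the chemokines without Tnf, and 825 had Tnf with at most 4 chemokine UMIs.

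The cells came from 2 regions of the mouse brain. Motor cortex was taken from Fos-CreER::Ai9 mice and dorsal striatum from Arc-CreER::Ai9 mice, so region and driver line cannot be told apart. In both lines an activity-dependent gene drives a tamoxifen-inducible Cre that switches on tdTomato in the Ai9 reporter. Every animal received 4-hydroxytamoxifen (4-OHT), the untrained controls included; early mice had trained for 2 days and late mice for 8 days on a forelimb reaching task, and tissue was taken 3 days after labelling. Each pool held 2 mice, with the hemispheres loaded as separate libraries. There were 12 pools, 2 for each region and stage. All tissue was digested with papain at 20 U/ml and 37 °C for 1 h, so no sample without that digestion can be set beside these cells. The 23 libraries analysed held 469 to 7087 kept cells; dorsal striatum control replicate 1 is represented by its left hemisphere alone. Age is not given in the labels used here.

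Microglia are the resident macrophages of the brain. TNF signals through the receptors TNFR1 and TNFR2, while CCL3 and CCL4 are chemokines that recruit immune cells, with CCL3 binding the receptor CCR1. The transcription factor NF-κB drives all of these genes in macrophages, and it also induces its own inhibitors, among them IκBα (Nfkbia) and A20 (Tnfaip3), so ligand and brake are usually transcribed together.

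Promoter sequences are shown for 4 of the genes that were higher in the double-positive cells, because they carry matches to the 2 motifs searched. Each is the 250 bases before the RefSeq start site (GRCm38.p6), 5′ to 3′ on the gene's strand. Capitals mark matches on either strand to the κB consensus bound by NF-κB or to TGANTCA. The latter is a loose form of the AP-1 motif that allows any middle base, and matches to it are called AP-1 matches here. Those shown all read TGAATCA, and binding was not tested.
Cxcl2, chr5:90903649-90903898, plus strand: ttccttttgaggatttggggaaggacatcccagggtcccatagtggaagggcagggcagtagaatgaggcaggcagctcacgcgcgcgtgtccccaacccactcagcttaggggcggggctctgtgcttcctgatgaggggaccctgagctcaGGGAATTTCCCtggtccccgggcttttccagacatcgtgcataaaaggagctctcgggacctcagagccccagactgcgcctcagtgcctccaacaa
Nfkbia, chr12:55492648-55492897, minus strand: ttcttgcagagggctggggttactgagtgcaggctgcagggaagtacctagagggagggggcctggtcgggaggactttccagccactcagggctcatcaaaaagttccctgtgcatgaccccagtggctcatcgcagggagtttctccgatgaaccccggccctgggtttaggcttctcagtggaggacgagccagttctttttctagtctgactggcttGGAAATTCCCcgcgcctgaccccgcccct
Ccl9, chr11:83578637-83578886, minus strand: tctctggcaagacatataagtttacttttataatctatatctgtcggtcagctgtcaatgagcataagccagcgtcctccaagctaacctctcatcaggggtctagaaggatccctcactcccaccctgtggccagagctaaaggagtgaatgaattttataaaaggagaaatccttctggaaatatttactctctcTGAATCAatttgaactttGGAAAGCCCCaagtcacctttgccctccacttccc
Bcl2a1b, chr9:89199023-89199272, plus strand: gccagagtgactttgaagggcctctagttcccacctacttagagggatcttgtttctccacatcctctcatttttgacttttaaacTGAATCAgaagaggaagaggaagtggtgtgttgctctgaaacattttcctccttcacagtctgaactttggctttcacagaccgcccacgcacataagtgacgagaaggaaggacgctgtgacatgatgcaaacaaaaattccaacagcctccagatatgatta
In Cxcl2 the capitals span 2 overlapping κB matches, which begin 97 and 96 bases before the start. Nfkbia has a κB match beginning at 29 bases. Ccl9 has an AP-1 match at 53 bases and a κB match at 35 bases, and Bcl2a1b has an AP-1 match at 164 bases. Of the 27025 genes with an entry, 3.75% held a κB match in this window and 6.87% an AP-1 match. Among the NF-κB genes called higher below, 9 of the 21 with an entry held a κB match, and among the called cytokines 4 of 9. Both lists were chosen by known roles, the first as targets and feedback genes of NF-κB. Their shares of κB matches thus follow in part from that choice and are not a result about these cells. In the NF-κB list 25 of the 26 genes tested were called, so called and uncalled genes could not be compared. Tnf, on chromosome 17 at 35199381 to 35202007, and Ccl3, on chromosome 11 at 83647844 to 83649355, had no match to either motif in this window, which says only that these letters are not in it. Ccl4 lies beside Ccl3 on chromosome 11 at 83662584 to 83664683.

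The genes that chose the cells are given as a description, with no test. Double-positive cells held a median of 3 Tnf UMIs and 34 chemokine UMIs, with highest values of 77 and 547. Since the rule is on the sum, 171 of them had no Ccl3 UMI and 229 no Ccl4 UMI. At the edge of the rule, 2470 of them (30.8%) had exactly 1 Tnf UMI and 177 (2.21%) exactly 5 chemokine UMIs; just outside it, 154 cells had Tnf with 4 chemokine UMIs and 188 had 5 chemokine UMIs with no Tnf. As log2 CPM (a gene's share of all UMIs of a pool, scaled to a common total), Ccl3 ran from 12.71 to 14.04 with a median of 13.58 in the double-positive cells, and from 7.60 to 9.02 with a median of 8.56 in the comparison cells. Ccl4 ran from 13.08 to 14.42 and from 7.84 to 9.05. These cells held 75.2% of all Tnf UMIs in the series, 60.7% of Ccl3 and 59.2% of Ccl4. The number of Ccl4 UMIs per Ccl3 UMI in them ranged from 0.801 to 1.39 over pools, on the scale of 3′ tags, which is not scaled by length.

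The microglial label was checked against markers outside the rule. C1qa, a complement subunit, ran from 12.28 to 13.16 log2 CPM with a median of 12.69 in the double-positive cells, against 2.57 in 38296 neurons of the same libraries. Neurons were cells with at least 5 Snap25 UMIs and 0 UMIs of P2ry12, Tmem119, Cx3cr1 and Siglech, and their levels are on another scale (below). Trem2, a lipid-sensing receptor, ran from 10.54 to 11.46 with a median of 11.09, against 2.11 in neurons. Both were high in every pool. Markers of monocytes and neutrophils summed to 1.67 to 8.51 CPM over pools with S100a9 at 0, and 4 of the 5 T and NK cell markers (Cd3e, Cd3g, Nkg7 and Gzma) were at 0. Markers of perivascular macrophages summed to 2.37 to 27.9 CPM. That list includes Mrc1 and Pf4, which the rule caps and which held 195 and 30 of its 251 UMIs, so its low sum is largely set by the rule. Neuron markers summed to 453 to 6278 CPM.

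Of the neurons, which should lack these genes, 29 (0.0757%) met the criteria for Tnf and the chemokines although their median of 6478 UMIs was above the 2075 of the double-positive cells. Neurons with any UMI of the rule's microglial markers had been left out. This share, and the other neuron values given here for microglial genes, may thus be too low as a measure of free RNA. Comparison microglia had a median of 1743 UMIs. Double-positive cells of different libraries shared 6 barcodes, touching 12 cells; each fell within 1 barcode set (below) and 1 within a single pool. Scrublet, a doublet caller, marked 7.72% of the double-positive and 9.61% of the comparison cells.

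Double-positive cells were found in every pool, and their share of microglia did not follow region, training, hemisphere or sex beyond the spread between pools. The share ran from 38.6% to 67.2% with a median of 55.6%. In motor cortex the control pools had 48.0% and 62.3%, the early pools 47.4% and 67.2%, and the late pools 57.0% and 45.3%. In dorsal striatum the control pools had 48.8% and 62.1%, the early pools 38.6% and 65.6%, and the late pools 54.2% and 66.3%. In each of the 6 pairs 1 pool lay below the overall median and 1 above it, so stages overlapped throughout.

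**Figure D1:**
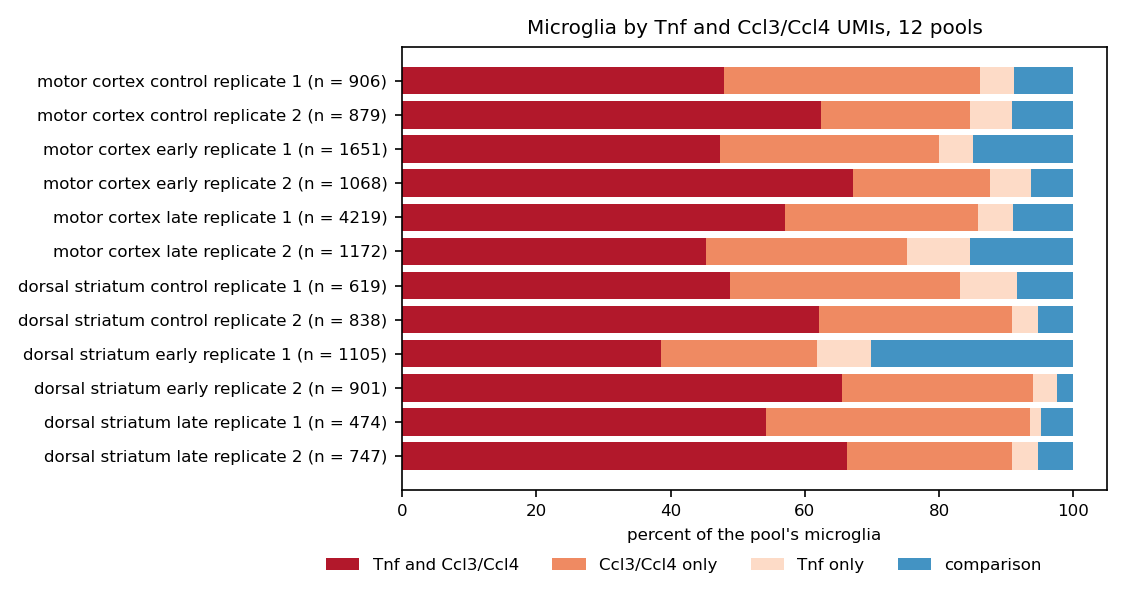
Percent of each pool's microglia (x axis) that were double-positive (dark red), had Ccl3/Ccl4 only, had Tnf only, or were comparison cells (blue), with the number of microglia beside each pool. Double-positive cells made up 38.6% to 67.2%, and the comparison class was widest, at 30.1%, in dorsal striatum early replicate 1.

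Motor cortex pools averaged 54.5% ± 9.01 (SD, n = 6) and dorsal striatum pools 55.9% ± 10.9 (SD, n = 6), a difference within the spread (exact permutation test, two-sided, p = 0.825). Trained pools averaged 55.2% ± 10.8 (SD, n = 8) against 55.3% ± 7.97 (SD, n = 4) in controls (exact permutation test within regions, two-sided, p = 0.987). That test joins early and late pools and takes no account of batch, so opposite moves of the stages could cancel in it. The hemisphere labelled contralateral had 2.32 percentage points fewer than the ipsilateral one, and was lower in 4 of the 8 trained pools (exact sign-flip permutation test, two-sided, p = 0.336). Cells with Xist UMIs and cells with Y-linked UMIs differed by -0.0467 points over the 11 pools with enough of both (exact sign-flip permutation test, two-sided, p = 0.979). These 4 tests form 1 family, and none passed before adjustment. Leaving out 1 pool moved the differences to between -4.83 and 0.71 points for region, -2.53 and 2.27 for training, -3.21 and -0.70 for hemisphere, and -1.17 and 0.79 for sex, with none passing. The labels name 6 batches of 2 pools each, and 4 hold a control and a trained pool of 1 region. There the late pool was above its control in both regions (57.0% against 48.0% in motor cortex, 54.2% against 48.8% in dorsal striatum). The early pool was below its control in both (47.4% against 62.3%, and 38.6% against 62.1%). The late pairs lay in the first barcode set (below) and the early pairs in the second, so stage and set cannot be told apart here. This pattern was not tested.

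The share depends on depth, since the rule counts UMIs. With each cell thinned to 1000 UMIs, 5616 cells (38.5% of microglia) met the rule, and the share ran from 25.4% to 56.2% over pools; the same 4 comparisons again did not pass. Libraries fell into 2 sets by the barcodes they shared, 7 libraries (replicate 1 of control and late in both regions) and the other 16, with barcodes shared more often within a set than between sets. Pools of the first set had double-positive shares of 48.0% to 57.0% and of the second 38.6% to 67.2%. Within the first set the regions differed by 0.993 points and within the second by -2.54 (exact permutation tests, two-sided, p = 1.0 and 0.914). The smallest p these tests could give was 0.333 and 0.0286, so the test in the first set could not pass. Trained less control pools of the second set differed by -7.14 (p = 0.562, exact permutation), where the smallest possible p was 0.0625, so that test could not pass either. In the first set the trained pools had 57.0% and 54.2% and the controls 48.0% and 48.8%, which was not tested. The left library of motor cortex control replicate 1 stood apart with 93 microglia, of which 83.9% were double-positive.

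Beyond the genes of the rule, double-positive microglia carried more transcripts of other cytokines, chemokines and NF-κB targets than comparison microglia of the same pool. UMIs were summed per pool and class and fitted with edgeR's quasi-likelihood test, with pool as a block and Benjamini-Hochberg adjustment over the 7244 genes tested; the test asks which other genes vary with Tnf and the chemokines among cells of 1 pool. At an adjusted p under 0.05, 970 genes (13.4%) were higher and 716 (9.88%) lower, 23.3% in all. The split depended on the filter: without a filter on low counts it was 1881 and 149, and with at least 40 comparison cells per pool, chosen after seeing the data, 944 and 363. The changes were unequal in size: 234 of the higher genes rose by 1 or more on the log2 scale, against 10 of the lower genes that fell as far, and the median over all genes tested was -0.07. Every pool moved the same way for 418 of the higher genes and for 4 of the lower. Levels in the 12 pools did not overlap between classes for 25 of the higher genes and for 0 of the lower. These counts were made among called genes only, with no share over all genes tested. Comparison sums rested on 22 to 382 cells per pool. In a pool whose comparison cells held no UMI of a gene, that gene could not stand lower in double-positive cells. The contrast in these counts may thus be set in part by low counts, and that part was not tested.

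The 15 higher genes with the smallest adjusted p that moved the same way in every pool were led by Gdf15, a stress-induced cytokine of the TGF-β superfamily. Its level ran from 5.49 to 10.67 log2 CPM with a median of 9.25 in double-positive cells, and from 1.63 (no UMIs) to 6.58 with a median of 4.43 in comparison cells. It was higher in 12 of 12 pools, by 4.28 ± 0.21 (SE) on the log2 scale (edgeR, adjusted p = 2.07e-14). The level of Gdf15 itself split between the 2 barcode sets, with 5.49 to 7.10 in double-positive cells of the first and 9.13 to 10.67 in those of the second, while the difference within pools was at least 2.55 in both.

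Bcl2a1b, of the anti-apoptotic BCL2A1 family, ran from 10.23 to 12.04 in double-positive cells and from 8.06 to 9.98 in comparison cells, with no overlap, and rose by 1.87 ± 0.12 (edgeR, adjusted p = 6.07e-12). Its near-identical copies Bcl2a1a (2.74) and Bcl2a1d (2.68) rose as well, though reads of such copies can be split between them. Slc7a11, the cystine carrier that feeds glutathione synthesis, rose by 2.78 ± 0.19, and Txnrd1, thioredoxin reductase, by 1.98 ± 0.16. The iron carrier Slc11a2 rose by 2.27. Slfn2, a Schlafen-family regulator of immune cell quiescence, rose by 2.37 without overlap of the pools. Edn1, the precursor of endothelin-1, rose by 3.02; Sdc4, the heparan sulfate proteoglycan syndecan-4, by 2.12; Zfp703, a transcriptional repressor, by 1.89; and Cpd, carboxypeptidase D, by 1.43. Ccl9 (1.79), Ccl12 (1.37) and Cxcl2 (3.18), all chemokines, complete the 15.

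**Figure D2:**
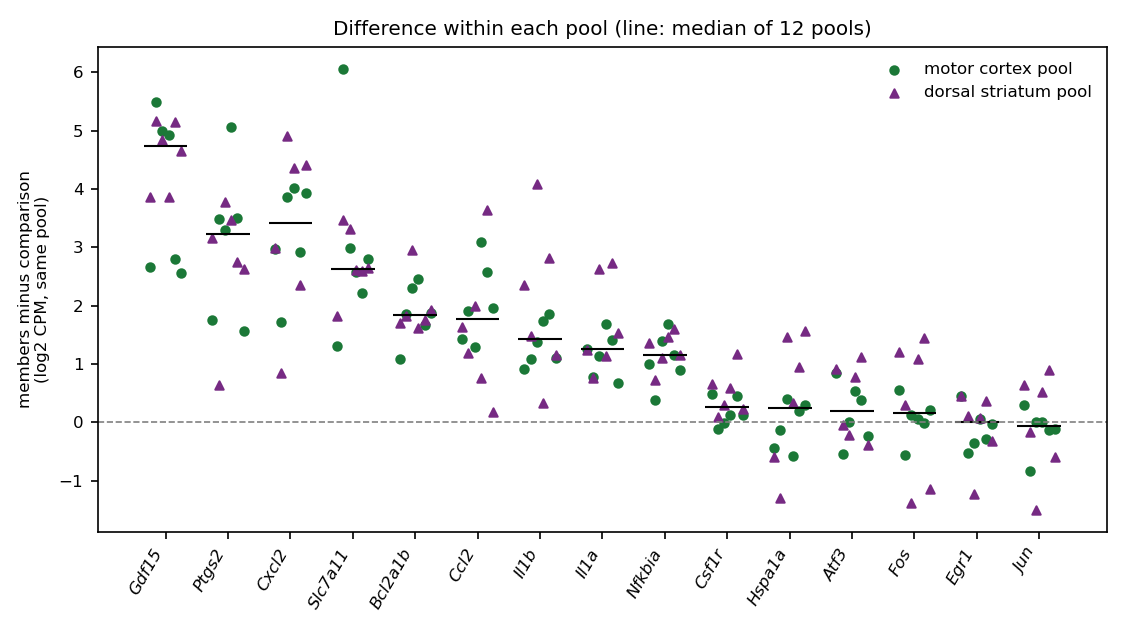
Difference in log2 CPM between double-positive and comparison microglia of the same pool (y axis) for 15 genes, with 1 point per pool (circles, motor cortex; triangles, dorsal striatum) and a line at the median. Gdf15, Ptgs2, Cxcl2, Slc7a11, Bcl2a1b, Ccl2, Il1b, Il1a and Nfkbia were above 0 in all 12 pools, while Fos, Egr1, Jun, Atf3 and Hspa1a lay on both sides of 0.

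Of 28 cytokine and chemokine genes listed, 17 could be tested, 16 were higher and 0 lower, with a median of 1.53. The filter on low counts can keep a gene through its level in double-positive cells alone. Such a gene could hardly be called lower, so the count of 0 is in part set by the filter, here and in the lists below. Ccl5, Tnfsf9 and Ccl7, for example, had no UMIs in the comparison cells of at least 1 pool. The interleukins Il1a and Il1b, which act through the IL-1 receptor, were both among the higher genes. Il1a ran from 11.05 to 12.02 log2 CPM with a median of 11.30 in double-positive cells, and from 8.42 to 11.00 with a median of 10.17 in comparison cells, so the classes did not overlap. It rose by 1.30 ± 0.13 (edgeR, adjusted p = 1.43e-08). For Il1b the ranges were 8.90 to 10.59 (median 9.69) and 5.57 to 8.94 (median 8.49), which touch only slightly, and the rise was 1.53 ± 0.19 (edgeR, adjusted p = 5.92e-07), in 12 of 12 pools.

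The monocyte chemoattractants Ccl2 and Ccl7 rose by 1.66 ± 0.18 and 2.35 ± 0.25. Cxcl2, which attracts neutrophils, had levels of 8.66 to 11.55 (median 9.74) against 5.17 to 9.12 (median 6.13), rising by 3.18 ± 0.25 (edgeR, adjusted p = 2.42e-10). Ccl5, another chemokine, was detected in few cells. It ran from 4.93 to 9.65 (median 6.06) against 1.63 to 5.69, with a comparison median of 1.63, which means no UMIs. It was higher in 11 of 12 pools and rose by 3.15 ± 0.43 (edgeR, adjusted p = 2.47e-06). The size of that rise is uncertain, since the comparison counts were mostly 0. Cxcl10, an interferon-responsive chemokine, rose by 1.24 ± 0.18. Tnfsf9, the ligand of 4-1BB, rose by 2.88 and Hbegf, a ligand of the EGF receptor, by 2.16. Il18 did not pass, at 0.36.

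Seen cell by cell at an equal depth of 1000 UMIs, 76.8% of double-positive cells held an Il1a UMI against 52.9% of comparison cells, and 0.319% of neurons. Without thinning these shares were 89.5%, 66.8% and 1.73%. Il1b was found in 31.0% against 15.7%, Ccl2 in 26.3% against 11.5%, and Cxcl2 in 21.8% against 3.68%; without thinning the shares were 40.5% against 21.1%, 37.4% against 17.7%, and 28.2% against 4.96%. Neurons had 0.144%, 0.238% and 0.201% after thinning. Over pools, the thinned share of double-positive cells with a Cxcl2 UMI ranged from 14.3% to 43.3%; a cell without a UMI at this depth may still express the gene.

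Of 32 receptor and adaptor genes listed, 22 were tested, 8 were higher and 1 lower, with a median of 0.21. Tnfrsf1b, which encodes TNFR2, ran from 5.78 to 7.98 log2 CPM against 3.79 to 6.88, and rose by 1.17 ± 0.13 (edgeR, adjusted p = 6.7e-08) in 12 of 12 pools. Tnfrsf1a, which encodes TNFR1, had a difference of -0.03 ± 0.15 (edgeR, adjusted p = 0.906), with levels of 6.03 to 7.89 against 5.35 to 7.61. The chemokine receptor gene Ccr1 did not pass either, with 0.17 ± 0.21 (edgeR, adjusted p = 0.586). Tlr2, a sensor of bacterial lipoproteins, rose by 1.61 ± 0.13, its partner Cd14 by 1.06 ± 0.11, and the adaptor Traf6 by 1.01 ± 0.25. Ifngr1, a subunit of the interferon-γ receptor, fell by 0.43; that call was lost without dorsal striatum early replicate 1 or without dorsal striatum late replicate 2.

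The NF-κB list moved almost as a whole. Of its 30 genes, 26 were tested, 25 were higher and 0 lower, with a median of 1.03. The limit set by the filter holds here too: Bcl2a1d, Tnfaip2, Nfkb2 and Tnip1 had no UMIs in the comparison cells of at least 1 pool. Nfkbia, the inhibitor that holds NF-κB in the cytoplasm, ran from 11.45 to 12.47 (median 11.76) in double-positive cells and from 9.96 to 11.37 (median 10.59) in comparison cells, without overlap, and rose by 1.07 ± 0.09 (edgeR, adjusted p = 5.35e-10). Nfkbiz, which encodes a nuclear protein of the IκB family, rose by 0.78 ± 0.10 and Tnfaip3, the ubiquitin-editing enzyme A20, by 0.82 ± 0.13. The subunit gene Nfkb2 rose by 1.72 ± 0.19. Tnfaip2 rose by 2.18, Gadd45b, which restrains stress kinase signalling, by 1.71, and the activation marker Cd83 by 1.04. Ripk2, at 0.33, was the tested gene of this list that did not pass.

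Genes that act on cytokine output, some raising and some limiting it, went both ways. Among 19 genes for RNA stability, shedding and phosphatase or SOCS feedback, 16 were tested, 8 were higher and 2 lower, with a median of 0.37. Rhbdf2, a partner of the protease that sheds TNF, rose by 1.93 ± 0.26, whereas the protease gene Adam17 itself had a difference of 0.01. Mapkapk2, the kinase MK2 that stabilises Tnf mRNA, rose by 1.39 ± 0.13 without overlap. Zfp36, which encodes the Tnf mRNA decay factor tristetraprolin, rose by 0.69, and Zc3h12a, the RNase regnase-1, by 0.95. Dusp2 rose by 1.33 and Socs3 by 0.90. Dusp6, an ERK phosphatase, fell by 0.93 ± 0.15 (edgeR, adjusted p = 1.85e-05), being lower in 9 of 12 pools, and Adam10 fell by 0.53, lower in 7 of 12.

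**Figure D3:**
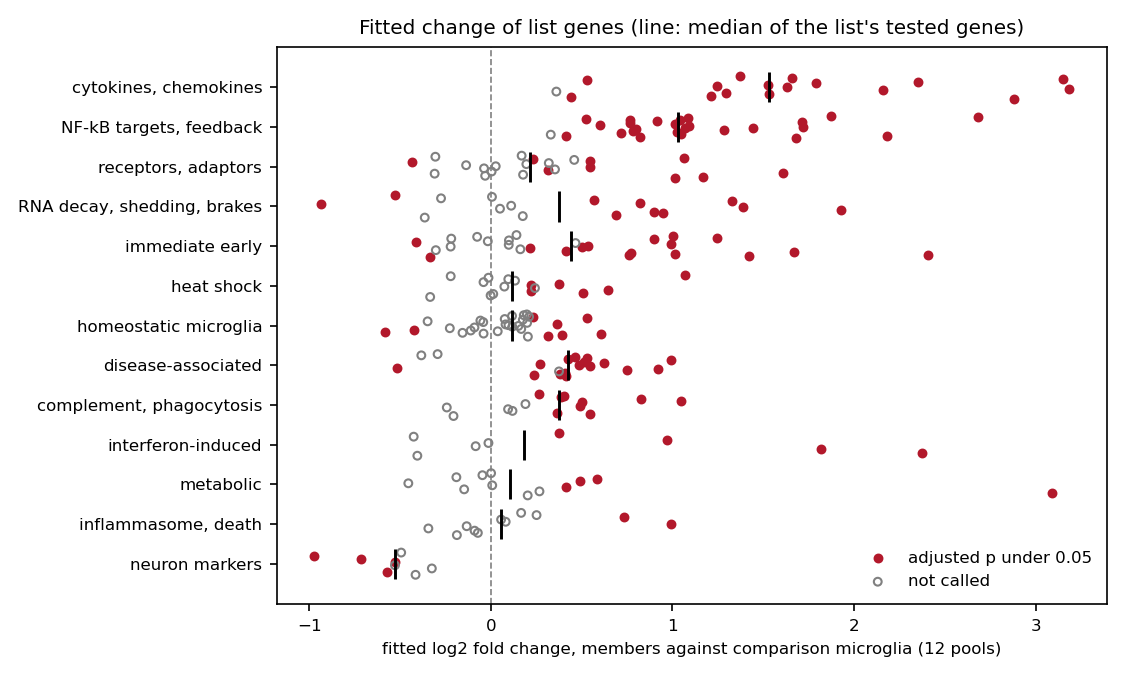
Fitted log2 fold change of double-positive against comparison microglia (x axis) for every tested gene of 13 lists, with filled points at an edgeR adjusted p under 0.05, open points otherwise, and a line at each list's median. Medians were 1.53 for cytokines and 1.03 for NF-κB genes, and 0.12 for both the heat shock and the homeostatic genes.

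Immediate early genes, which respond within minutes to many stimuli, divided. Of 28 listed, 26 were tested, 14 were higher and 2 lower, with a median of 0.44. The best known of them did not separate the classes. Fos ran from 8.19 to 11.13 log2 CPM (median 9.75) in double-positive cells and from 7.88 to 11.20 (median 9.61) in comparison cells, a difference of -0.02 ± 0.16 (edgeR, adjusted p = 0.96). Jun differed by -0.22 ± 0.13 (edgeR, adjusted p = 0.215), Egr1 by -0.22 ± 0.11 (edgeR, adjusted p = 0.133) and Atf3 by 0.14 ± 0.11 (edgeR, adjusted p = 0.381). Within the barcode sets these genes differed in direction or size. The median difference of Atf3 was 0.88 over the 4 pools of the first set, in all of which it was above 0, and -0.14 over the 8 of the second. For Fos it was 0.87 (3 of 4 pools higher) and 0.09 (5 of 8), for Jun 0.47 (3 of 4) and -0.15 (2 of 8), and for Egr1 0.41 (3 of 4) and -0.17 (3 of 8). Nr4a3, an orphan nuclear receptor, rose by 2.41 ± 0.23, the small MAF factor Maff by 1.67 ± 0.15, Rgs1, a G-protein regulator, by 1.42 and Csrnp1 by 1.25. Fosb was called lower at -0.41, though lower in 6 of 12 pools and higher in 6, and Rgs2 at -0.33, lower in 9 of 12; the Fosb call was lost without any 1 of 4 pools (dorsal striatum control replicate 2, early replicate 1 and late replicate 2, and motor cortex control replicate 2), and the Rgs2 call without any 1 of 11, all but motor cortex early replicate 2.

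Heat shock genes showed small differences. Of 16 tested, 6 were higher and 0 lower, with a median of 0.12. Hspa1a, the inducible HSP70, ran from 7.53 to 10.83 against 7.97 to 11.38 and differed by 0.07 ± 0.17 (edgeR, adjusted p = 0.796). Bag3, its co-chaperone, rose by 1.07 ± 0.22, and Hspa5, the chaperone BiP of the endoplasmic reticulum, by 0.65 ± 0.09.

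Of the 30 homeostatic microglial genes tested, 6 were higher and 2 lower, with a median of 0.12, shares near the 13.4% and 9.88% of all genes. Csf1r, the receptor for the survival factors CSF1 and IL-34, ran from 10.63 to 11.46 against 9.72 to 11.47; its rise of 0.23 ± 0.08 passed (edgeR, adjusted p = 0.0349) but was lost on leaving out any 1 of 6 pools (dorsal striatum control replicate 1, early replicate 1 and early replicate 2, and motor cortex control replicate 1, late replicate 1 and late replicate 2). Cst3, cystatin C, rose by 0.53 ± 0.07 and Sparc by 0.39 ± 0.08. Sall1, a transcription factor of microglial identity, fell by 0.58 ± 0.13 (edgeR, adjusted p = 0.00146), lower in 9 of 12 pools, and the ADP receptor P2ry13 fell by 0.42, a call lost without dorsal striatum control replicate 2 or without dorsal striatum early replicate 1. The markers used by the rule are given without a test: the median within-pool difference was -0.09 for P2ry12, -0.39 for Tmem119, -0.07 for Cx3cr1 and 0.38 for Siglech. For Tmem119 the direction turned between barcode sets, with 0.54 in the first (3 of 4 pools higher) and -0.49 in the second (1 of 8).

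Genes of the disease-associated microglial programme were higher by modest amounts, 15 of 19 tested, with 1 lower and a median of 0.42. Cd63, a lysosomal tetraspanin, rose by 0.99 ± 0.12, Fth1, ferritin heavy chain, by 0.92 ± 0.10 and the cathepsin gene Ctsb by 0.63 ± 0.08. Apoe, the lipid carrier that leads this programme, did not pass here, at -0.38 ± 0.17 (edgeR, adjusted p = 0.0942), but was called lower in the fit of 4 classes, at -0.46 ± 0.18 (adjusted p = 0.0494), with 8.23 to 10.28 against 8.03 to 11.31. In the complement and phagocytosis list 9 of 14 tested genes were higher and 0 lower, among them the anaphylatoxin receptors C5ar1 (1.05 ± 0.13) and C3ar1 (0.82 ± 0.11). Cd74, the invariant chain, rose by 1.22 ± 0.20 and the costimulatory gene Cd86 by 0.82 ± 0.10. Of the 28 interferon-induced genes 8 were tested and 4 were higher, with Isg15 at 1.82 ± 0.28 after Slfn2. The median was 0.18, and only the 4 called genes were above 0. The call of Bst2 (0.38), 1 of these 4, was lost on leaving out any 1 of 5 pools. Nlrp3, the inflammasome sensor, rose by 0.99 ± 0.15 and Casp4 by 0.73 ± 0.13, the 2 higher genes among 11 tested, with a median of 0.06, a share near the 13.4% of all genes. Ptgs2, the prostaglandin-forming enzyme COX-2, ran from 4.38 to 8.30 against 1.63 to 6.45 and rose by 3.09 ± 0.28, and 4 of the 12 metabolic genes tested were higher and 0 lower, with a median of 0.11.

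The lower genes were of another kind. Only Nsmce4a (-0.65 ± 0.13), Itfg1 (-0.57 ± 0.12), Helz (-0.47 ± 0.13) and Rmnd5a (-0.58 ± 0.18) were called and lower in all 12 pools; the call of Helz was lost without motor cortex early replicate 2, and that of Rmnd5a without the same pool, dorsal striatum control replicate 2 or dorsal striatum late replicate 2. Of the 716 lower genes, 606 (84.6%) had a higher level in neurons of the series than in comparison microglia, against 18.8% of the higher genes and 58.0% of all genes tested. Neuron levels are on another scale (below), which can move these shares through genes of low level. Neuron markers moved with the classes: all 8 tested were below 0, with a median of -0.53, and 4 were called lower (Gad2, Meg3, Snap25 and Nrgn). All 4 calls were lost with at least 40 comparison cells per pool and with pairs of cells nearest in UMIs. Leaving out 1 pool lost the call of Nrgn in 10 cases, of Gad2 in 5 and of Snap25 in 2. Neuron markers summed to 453 to 6278 CPM (median 1609) in double-positive cells and to 1110 to 10222 CPM (median 3347) in comparison cells. The sum was lower in double-positive cells in 11 of 12 pools. Astrocyte markers had medians of 185 and 261 CPM and were lower in double-positive cells in 10 of 12 pools, and endothelial markers had 34.7 and 72.4 CPM and were lower in 8. Oligodendrocyte markers had summed medians of 98.8 and 56.4 CPM and were lower in 4, while their fitted median change was -0.23, with 1 of 2 tested above 0, and markers of oligodendrocyte precursors had 33.1 and 44.2 CPM and were lower in 7. In the fit of 4 classes described below, all 3 endothelial markers tested were called lower, with a median of -1.65, as was 1 of 2 oligodendrocyte markers, with a median of -0.92. The part of these cell types in the lower genes was not tested. The number of lower genes fell to 330 without dorsal striatum early replicate 1, where 333 comparison cells were found, and to 322 without motor cortex early replicate 2; over all 12 omissions it ranged from 322 to 799, and the number of higher genes from 809 to 1232.

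Microglia that met 1 criterion differed from comparison cells in fewer genes. In a fit of all 4 classes over 11 pools (7097 genes, leaving out dorsal striatum late replicate 1 with 8 Tnf-only cells), the chemokine-only class had 231 genes higher (3.25%) and 19 lower (0.268%), 3.52% of genes in all. The Tnf-only class had 26 higher (0.366%) and 3 lower (0.0423%), 0.409% in all. The double-positive class had 1117 higher (15.7%) and 685 lower (9.65%), 25.4% in all. These comparisons share the comparison cells, so their calls are not independent. Leaving out a pool moved the total from 29 to between 1 (without motor cortex early replicate 2) and 60 (without motor cortex control replicate 2) for Tnf-only, and from 250 to between 90 (without motor cortex late replicate 1) and 368 for chemokine-only.

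For Gdf15, Cxcl2, Nfkbia and Il1b the medians of both partial classes lay between those of the other classes; for Ccl2 the Tnf-only median, 7.62 log2 CPM, was close to the 7.66 of comparison cells. Gdf15 had median levels of 4.43 log2 CPM in comparison, 6.29 in Tnf-only, 6.38 in chemokine-only and 9.25 in double-positive cells. Cxcl2 had 6.13, 7.21, 7.75 and 9.74 in the same order, and Nfkbia 10.59, 11.32, 11.19 and 11.76. Il1b had 8.49, 8.62, 9.06 and 9.69, of which the first pair overlapped over most of their ranges. Of the NF-κB list, 5 of 25 tested genes were higher in Tnf-only cells, 14 in chemokine-only cells and 25 in double-positive cells; of the cytokine list, 3, 12 and 17 of 18. The calls came from 825 Tnf-only and 4193 chemokine-only cells, and the median change of the NF-κB list was 0.50 in both, with 24 and 25 of its 25 genes above 0; for the cytokine list the medians were 0.53 and 0.88, and the difference between the partial classes was not tested. In Tnf-only cells Nfkbia rose by 0.61 (edgeR, adjusted p = 0.00149). The 3 genes lower in Tnf-only cells, named after their values were seen, were Dbi (-0.80), Apoe (-0.87) and Ptprz1 (-1.90). Markers of other glia and of vessels moved with this class, with median changes of -1.96 for oligodendrocyte, -1.30 for oligodendrocyte precursor, -0.62 for astrocyte and -1.33 for endothelial markers, 0 of 9 tested being above 0 and 0 called; their part in these 3 genes was not tested. In chemokine-only cells the medians were -0.87, -0.74, -0.34 and -0.68 in the same order, with 0 of 9 above 0, and -0.33 for neuron markers, with 2 of 8 above 0; 0 were called, and their part in the calls of this class was not tested. Fos had medians of 9.61, 9.50, 10.16 and 9.75, and Csf1r of 10.97, 10.95, 11.17 and 11.13.

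**Figure D4:**
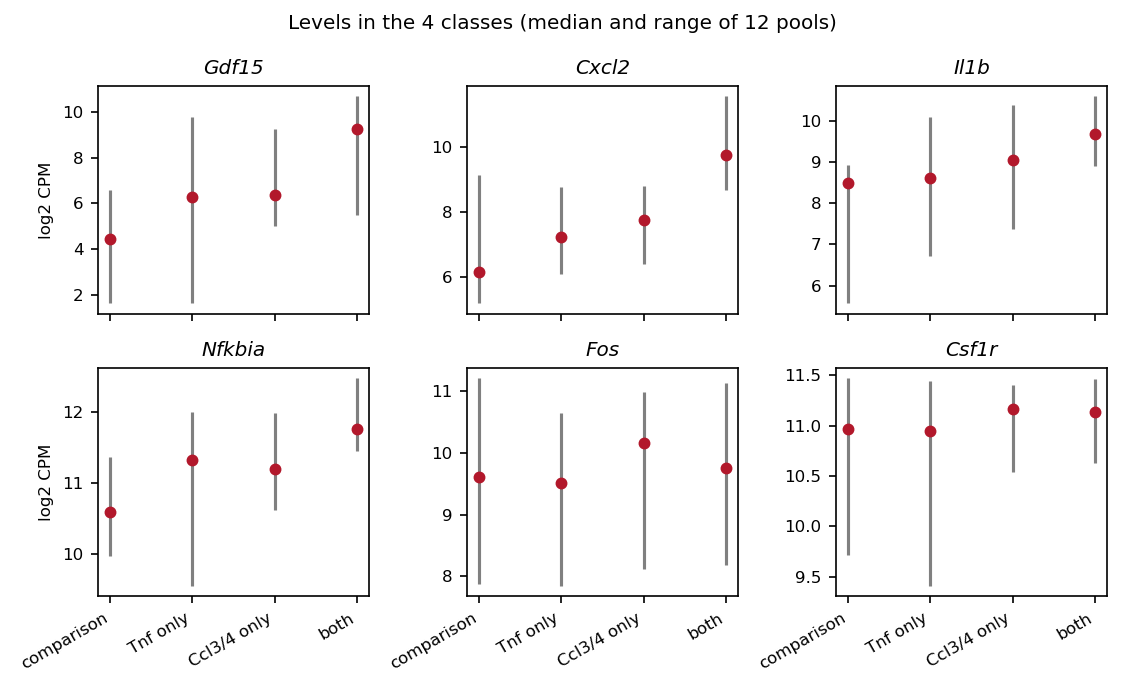
Level in log2 CPM (y axis) of 6 genes in the 4 classes of microglia (x axis); points are medians and lines the range over 12 pools. The median of Gdf15 was 4.43 in comparison and 9.25 in double-positive cells, while that of Fos was 9.61 and 9.75 and that of Csf1r 10.97 and 11.13.

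Among the double-positive cells, those with more Ccl3 and Ccl4 transcripts also had higher median levels of Cxcl2, Il1b, Il1a and Ccl2. This is a description, since the chemokines belong to the rule. Cells were divided by Ccl3 and Ccl4 UMIs per 1000 UMIs into 991 with under 5, 1524 with 5 to 10, 2169 with 10 to 20, 2042 with 20 to 40 and 1284 with 40 and over. Levels were scaled together over these smaller sums, so values for comparison cells differ slightly from those above. The median level of Cxcl2 over pools was 7.35, 8.48, 9.49, 9.95 and 11.26 log2 CPM from the lowest to the highest division, against 6.07 in comparison cells. Il1a had 9.96, 11.10, 11.44, 11.73 and 12.04, against 10.04, and Ccl2 had 7.41, 8.64, 9.09, 9.97 and 10.70, against 7.59. Il1b had 8.24, 9.19, 9.72, 10.18 and 10.47, against 8.39, and Nfkbia had 10.67, 11.53, 11.93, 12.06 and 12.20, against 10.47. In the lowest division Il1a, Il1b, Ccl2 and Nfkbia were close to the comparison level. Fos did not climb in this way, with 9.30, 9.86, 9.96, 9.56 and 8.68. Cells of the lowest division had a median of 2484 UMIs, and 21.5% of them were marked as doublets, against 2.10% in the highest division; Snap25, a neuronal gene, was seen in 28.8% and 12.7%. The part of doublets in these levels was not tested.

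**Figure D5:**
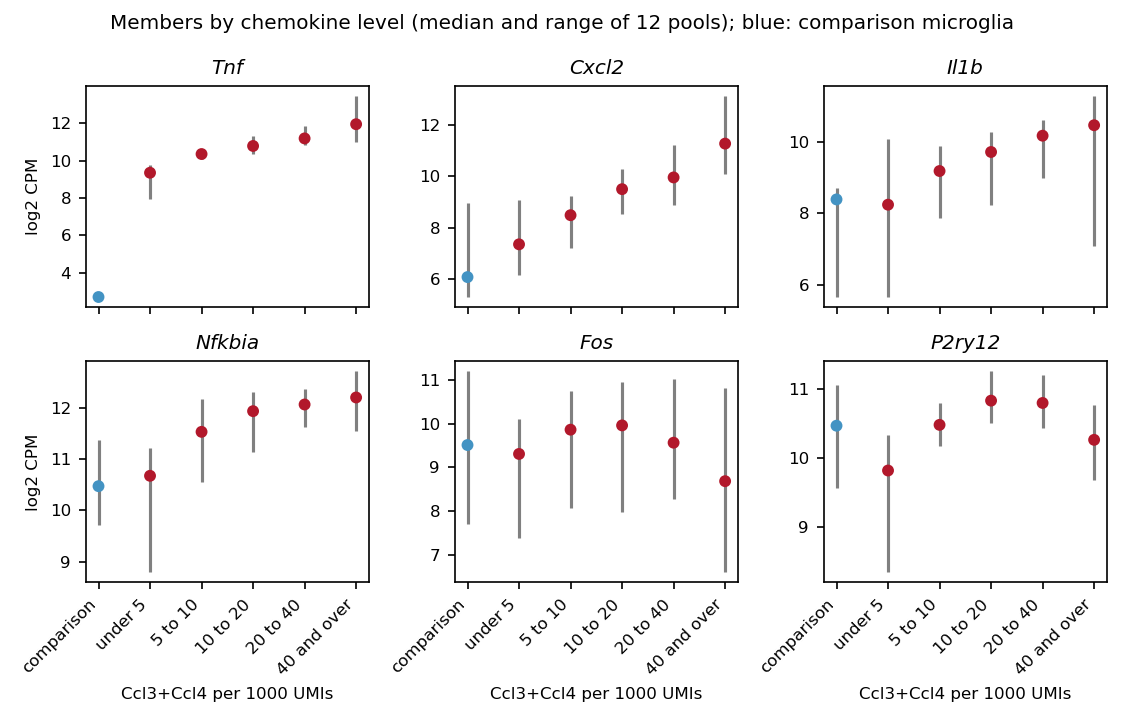
Level in log2 CPM (y axis) of 6 genes in comparison microglia (blue) and in double-positive cells divided by Ccl3 and Ccl4 UMIs per 1000 UMIs (red); points are medians and lines the range over 12 pools. Cxcl2 went from 7.35 to 11.26 from the lowest to the highest division and Fos from 9.30 to 8.68.

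Training left no gene called within the double-positive cells. UMIs of these cells were summed per pool and fitted with edgeR over 10919 genes, with region and barcode set as covariates. Early against control pools gave 0 calls (220 genes at an unadjusted p under 0.05) and late against control 0 (564 genes), and DESeq2 also gave 0 for both; the comparisons share the control pools. With the labelled batch as a block, which sets trained against control pools of 1 region within 4 batches and leaves 3 residual degrees of freedom, edgeR gave 0 calls early (157 genes at an unadjusted p under 0.05) and 0 late (379 genes); there Cxcl2 differed by 0.18 ± 0.46 early and 0.63 ± 0.47 late, Il1b by -0.03 ± 0.32 and 0.46 ± 0.32, and Nfkbia by 0.08 ± 0.45 and -0.32 ± 0.47, so that Il1b turned in sign at both stages. Il1b differed by 0.23 ± 0.26 early and -0.02 ± 0.24 late, Nfkbia by 0.10 ± 0.30 and -0.13 ± 0.26, and Cxcl2 by 1.04 ± 0.48 and 0.49 ± 0.42 (edgeR, adjusted p = 1.0 and 0.949). Cxcl2 in the early motor cortex pools stood at 9.15 and 11.55 log2 CPM, against 8.66 and 8.92 in its controls, so the early pools differed from each other by more than the lower of them differed from its controls. In counts simulated for late against control, 47% of genes changed by 1 on the log2 scale were recovered, so smaller changes may not be detectable with these pools. Only genes of higher level were changed, so recovery of low genes was not measured. In dorsal striatum alone, with 2 residual degrees of freedom, 207 genes were called early and 47 late, and in motor cortex alone 0 and 0.

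Between regions, 391 of the 10919 genes (3.58%) were called in the double-positive cells, 216 higher in motor cortex (1.98%) and 175 higher in dorsal striatum (1.6%). Of the 391, 10 (2.56%) were in the immune, stress, metabolic or cell cycle lists. These lists hold a small part of the 10919 genes, so the low count does not show that immune genes were spared. Among the 10 were 6 of the 9 cell cycle genes tested, which were higher in dorsal striatum, such as Top2a (-3.39 ± 0.40). Of the NF-κB list 0 of 28 tested genes were called and of the cytokine list 1 of 23, Igf1 (2.86 ± 0.74). Lists this short would hold few calls at the 3.58% of all genes. Il1b differed by 0.53 ± 0.20 (edgeR, adjusted p = 0.215) and Nfkbia by -0.10 ± 0.21 (edgeR, adjusted p = 0.934). With the labelled batch as a block these differences were 0.99 ± 0.32 and 0.01 ± 0.46 (edgeR, adjusted p = 0.688 and 1.0).

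The 8 region calls with the smallest adjusted p and no overlap of pools include genes known from neurons. Cck, a neuropeptide, ran from 7.34 to 10.06 log2 CPM in motor cortex and from 1.95 to 4.38 in dorsal striatum, and the vesicular glutamate transporter Slc17a7 from 6.27 to 8.40 and from 1.63 to 3.07. Tac1, the precursor of substance P in striatal neurons, ran from 1.92 to 2.94 and from 5.88 to 8.24, and Sox11, a factor of immature neurons, stood apart as well, with medians of 3.46 and 6.79 and no overlap. Nrn1 (6.31) and Stx1a (3.25) were also higher in motor cortex, and Igfbpl1 (-6.82) and Sp9 (-6.00) in dorsal striatum. Of the 391 genes, 331 (84.7%) had a higher level in neurons of the series than in the double-positive cells, against 57.8% of all genes tested. Since neuron levels are on another scale (below), genes of low level can move both shares. Neuron markers summed to a median of 1790.5 CPM in double-positive cells of motor cortex and 1478 CPM in those of dorsal striatum; 2 of 8 were called higher in motor cortex, with a median change of 0.87. Oligodendrocyte markers had 63.6 and 173.8 CPM, with a median change of -1.19, 0 of 4 above 0 and 0 called, and markers of oligodendrocyte precursors 54.1 and 21.5 CPM, with a median change of 1.13 and 1 of 3 called. The part of these cell types in the region calls was not tested. With marked doublets removed, 54 of 9247 genes tested were called, and with the labelled batch as a block, in which 2 batches hold both regions, 14 (7 higher in motor cortex).

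The difference between double-positive and comparison microglia was itself compared between regions. The interaction gave 0 calls among 7244 genes (268 at an unadjusted p under 0.05), and DESeq2 gave 0. For Ccl5 the difference was above 0 in all pools but motor cortex early replicate 1, at -0.20; for Il1b the difference within pools ran from 0.32 in dorsal striatum early replicate 2 to 4.08 in dorsal striatum early replicate 1.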

How the data were processed

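Single-cell 3′ RNA libraries from 12 pools of mouse tissue were analysed. The authors deposited raw UMI counts per gene and cell, made with Cell Ranger 3.1.0 on GRCm38 (mm10) per the submitters' processing notes; the file headers name software version 3.0.2. Of 24 libraries, 23 were analysed here. Cells with at least 1000 UMIs, 500 genes and at most 20% mitochondrial UMIs were kept, with totals of 5260450 to 30470600 UMIs per library. Of 54235 features, 54079 matched GENCODE M21 by gene ID.

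UMIs were summed per pool and class. The pool was the replicate. In the fits with pool as a block, and in the hemisphere and sex tests, p-values measure the spread of within-pool differences. In the region and stage fits, and in the region and training tests of shares, they measure the spread between pools. Genes passing filterByExpr were fitted with edgeR 4.0.16 (TMM, quasi-likelihood test, Benjamini-Hochberg adjustment at 0.05) in R 4.3.3, without the genes that chose the cells, in the fit and in library sizes. Levels of microglial classes are log2 CPM with a prior count of 2, on which 1.63 is a gene without UMIs. Neuron levels are on another scale. They were taken from UMIs summed over all libraries, without TMM and with a smaller constant added, so low genes can stand below 1.63. Comparisons of the 2 scales are therefore approximate for genes of low level. In counts simulated for the comparison of classes, 89.5% of 200 genes changed by 1 on the log2 scale were recovered. In all simulations the changed genes were drawn from those of higher level, and each gene had the same mean share in every pool. Recovery of genes with low counts was therefore not measured. Scrublet doublets were kept and removed in an alternative, and DESeq2 1.42.0 was another. Shares were compared by exact permutation tests over pools.

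Named were up to 15 higher and 10 lower called genes with the smallest adjusted p that moved the same way in every pool, the largest changes of each list, up to 8 region calls without overlap, and a set of genes whatever their values. Tnfrsf1a, Ccr1, Adam17, Il18 and Ripk2, which did not pass, and the lower genes of Tnf-only cells were named after their values were seen. Members and lists were chosen with earlier results of these data known.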

Additional observations from a re-analysis of the deposited data

Results flagged for a closer look

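Of 40 sets of 6 pools examined, 4 held a pool far from the others, and chance marks about 1 set in 20. In motor cortex control replicate 2 the difference of Slc7a11 between double-positive and comparison cells was 6.06 on the log2 scale, against 1.30 to 2.99 in the other motor cortex pools; its comparison cells had no UMI there, so the value depends on the prior count. In dorsal striatum early replicate 1 the comparison class made up 30.1% of microglia, against 2.44% to 8.40% in the other striatal pools, and the difference of Bcl2a1b was 2.96 against 1.62 to 1.92. In dorsal striatum control replicate 2 the difference of Ptgs2 was 0.63 against 2.63 to 3.78.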

How the results depend on the processing

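The comparison of double-positive with comparison microglia called 1686 genes. Leaving out a pool gave 1165 (without dorsal striatum early replicate 1) to 2031. In place of 970 higher and 716 lower, RLE factors gave 935 and 793, DESeq2 853 and 511, doublets removed 841 and 696, a stricter cell filter 825 and 561, no filter on low counts 1881 and 149, and at least 40 comparison cells per pool 944 and 363. Pairs of cells nearest in UMIs gave 551 calls (317 higher, 234 lower), from fewer cells and 2443 genes. Of 101 named called genes, 59 were called with the same sign under every alternative that tested them; over 2396 comparisons 194 calls were lost and 0 reversed.

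Without the replicate block (pool) the same comparison gave 420 calls (369 higher, 51 lower). Replicate numbers are not stated to pair samples; as a replicate block in the region fit they gave 281 calls in place of 391, and 0 for both stages.

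Without the filter on low counts the region fit gave 960 calls, early 37, late 57, the interaction 6, chemokine-only 625 and Tnf-only 103; the cause was not tested. With doublets removed the region fit gave 54 calls among 9247 genes. The labelled batch as a block, chosen after seeing the data and leaving 3 residual degrees of freedom, gave 14 region calls and 0 for both stages. Dorsal striatum alone gave 207 early and 47 late. Leaving out a pool gave 0 to 3 early calls, 90 to 368 chemokine-only calls and 1 to 60 Tnf-only calls. Depth and the 22 to 382 comparison cells per pool limit what low genes can show.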

Other observations

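Trbc2, a T-cell receptor constant region gene, was seen in the double-positive cells of motor cortex with 286 UMIs over 6 of 6 pools, and in those of dorsal striatum with 1 UMI. It differed by 6.23 ± 0.60 on the log2 scale (edgeR, adjusted p = 1.19e-05). Comparison microglia had 84 UMIs in motor cortex and 0 in dorsal striatum, and the other T and NK cell markers listed were at 0 in both classes. Among cell cycle genes, Ube2c ran from 1.63 to 2.05 log2 CPM in double-positive cells of motor cortex and from 3.58 to 6.17 in those of dorsal striatum, and Cenpf from 1.63 to 2.60 and from 3.69 to 5.29.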
